A study of Rattus norvegicus with 9 samples.

Results

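AS-tDR-001297, AS-tDR-000011, AS-tDR-007895, AS-tDR-008139, AS-tDR-007422 and AS-tDR-009298 are 6 of the 530 tRNA-derived fragments counted in rat brain tissue after an intracerebral haemorrhage. They were chosen by identifier, because they follow one another in the row order of every table and include the second most abundant fragment. Row position and mean level were therefore used in the choice and are given as descriptions, and no test was made on them. All 6 were above 0 in all 9 libraries and all 6 passed the filter on low counts.

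The libraries came from tissue around the right globus pallidus, a deep nucleus of the basal ganglia, of male Sprague-Dawley rats killed at day 21 after surgery. The ICH + BYHWD group (3 libraries) had 0.5 U of collagenase type VII injected in 2.5 µl of saline, which lets blood leak from small vessels, and then Buyang Huanwu Decoction (BYHWD), a herbal mixture of Chinese medicine, by gavage at 4.36 g/kg daily for 21 days. The ICH group (3 libraries) had the collagenase alone, and the sham group (3 libraries) had 2.5 µl of saline in its place. All groups went through the same anaesthesia, burr hole, needle passage and saline perfusion. The labels do not say whether ICH and sham rats were gavaged with a vehicle. The labels do not state that every library is a separate rat, so a p-value measures only the spread between these libraries, which may be technical. The tables hold tRNA fragments alone, so the labelled tissue could not be set against markers of brain cells.

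tRNA-derived fragments are small RNAs cut from mature or precursor tRNAs. The longer ones, called tiRNAs, come from a cut in the anticodon loop, made under stress by the ribonuclease angiogenin, and some of them repress translation. The shorter ones, called tRFs, come from the ends of the tRNA or from precursor sequence, and a given tRNA can yield several fragments. The tables used here do not pair the 6 identifiers with a tRNA, an end or a sequence, so they are described by level and by position, and no role is given to any of them.

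Levels are TPM, the tag count scaled to a constant total per library, not divided by fragment length. Library totals ran from 530827 to 1066616 tags, and the listed fragments held 71.2 to 80.6% of them. Features of single libraries touch the results below, namely a high count of AS-tDR-009298 in sham 1 and a low scaling factor in ICH 2 (0.647, against 0.856 to 1.18 in the other 8 libraries). Results that rest on AS-tDR-009298 or on sham 1 are given with and without sham 1.

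In every table the 6 fragments filled rows 81 to 128 without a gap. The order AS-tDR-000011, AS-tDR-007895, AS-tDR-008139, AS-tDR-007422, AS-tDR-009298, AS-tDR-001297 ran through those 48 rows 8 times, so that each fragment stood on 8 rows with the same values. The row above the stretch held AS-tDR-008499, which averaged 14658 TPM and belongs to the adjoining set around AS-tDR-007516. The row below held AS-tDR-009656, at 2044 TPM, of the set around AS-tDR-000052. These neighbours adjoin a member at a single place, whereas the 6 adjoin one another at 2 places or more, which is the limit that drew the set.

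AS-tDR-001297 had 74999, 82041 and 52918 TPM in ICH + BYHWD libraries 1, 2 and 3, 76115, 57120 and 57754 TPM in the ICH libraries, and 82314, 69451 and 71451 TPM in the sham libraries. In TPM it was low in ICH + BYHWD 3, ICH 2 and ICH 3, and the 3 groups overlapped. The low scaling factor of ICH 2 (0.647) raises all levels of that library in the scaled counts behind the tests and correlations below. The order of the libraries in TPM therefore does not carry over to those counts. Its mean of 69351 TPM over the 9 libraries lay between those of AS-tDR-000052 (77430 TPM) and AS-tDR-007516 (30617 TPM). By its TPM, without further scaling, AS-tDR-001297 was among the steadiest fragments. The SD of its log2 TPM over the 9 libraries was 0.24, and 17 of the 311 fragments above 0 in every library had a lower one. The median over those 311 was 0.43. The fragment above it, AS-tDR-000052, ran from 20655 TPM in sham 2 to 142059 TPM in ICH 2.

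AS-tDR-007895 had 14449, 17077 and 11477 TPM in ICH + BYHWD, 15557, 12322 and 12063 TPM in ICH, and 17584, 14787 and 14519 TPM in sham. It was high and low in the same libraries as AS-tDR-001297. The SD of its log2 TPM was 0.22, and 11 of the 311 fragments had a lower one.

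AS-tDR-007422 had 14423, 15113 and 6856 TPM in ICH + BYHWD, 14689, 10386 and 7649 TPM in ICH, and 16072, 14522 and 13428 TPM in sham. AS-tDR-008139 had 11690, 12361 and 6750 TPM in ICH + BYHWD, 12099, 8168 and 7592 TPM in ICH, and 14751, 12839 and 10949 TPM in sham. Both were lowest in ICH + BYHWD 3 and ICH 3, where they stood further below their other libraries than AS-tDR-001297 did. Their SDs of log2 TPM were 0.46 and 0.39, on either side of the median of 0.43.

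AS-tDR-000011 had 9504, 7442 and 5132 TPM in ICH + BYHWD, 4829, 3953 and 8024 TPM in ICH, and 5794, 5945 and 6496 TPM in sham. It did not follow the 4 fragments above: its highest levels were in ICH + BYHWD 1 and ICH 3, and its lowest were in ICH 2 and ICH 1. The SD of its log2 TPM was 0.39.

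AS-tDR-009298 had 2190, 2049 and 1337 TPM in ICH + BYHWD, 2035, 1510 and 1327 TPM in ICH, and 13662, 1924 and 1938 TPM in sham. In sham 1 it was counted 10048 times, against 1029 to 2171 times in the other 8 libraries. Sham 1 stood at 7.07 times the median of the other 8 libraries and at 6.24 times the next highest library. Both ratios were the highest among the 311 fragments. A highest library at 3 times the median of the others or more was found in 12 of the 311 fragments (3.86%), and AS-tDR-009298 was the only member among them, since the other 5 had ratios of 1.15 to 1.62. Sham 1 was the highest library for 34 fragments, and AS-tDR-009298 was the only one of these to reach 3 times. The second of the 34, AS-tDR-009636, chosen after its value was seen, reached 2.69 times. Of the pairs of libraries within a group, sham 1 and sham 2 had the lowest chi-square per degree of freedom over fragments (67.3, against 105 to 449.5). This value grows with the number of tags, which differed between libraries, so it ranks likeness only roughly. Without sham 1 the SD of the log2 TPM of AS-tDR-009298 dropped to 0.29, against 1.02 with it.

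**Figure D1:**
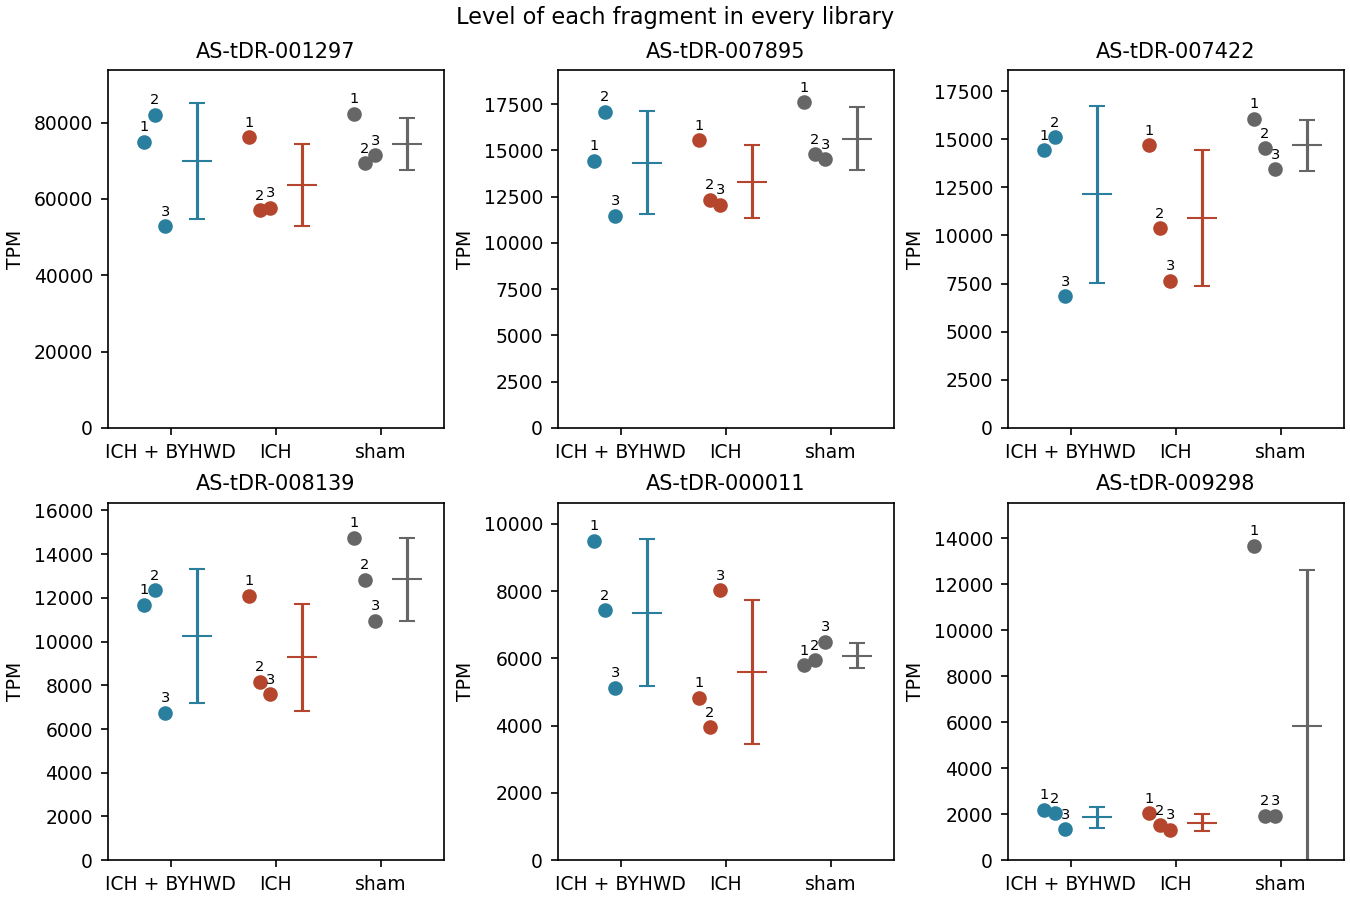
Level of each of the 6 fragments in TPM (vertical axis, from 0) for the 3 libraries of ICH + BYHWD, ICH and sham (points, numbered by library), with the mean and SD of each group (bars); the lower end of the sham bar of AS-tDR-009298 lies below 0 and is not drawn. All groups overlap for every fragment, and the highest point of AS-tDR-009298 is sham 1 at 13662 TPM, against 1327 to 2190 TPM in the other 8 libraries.

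**Figure D2:**
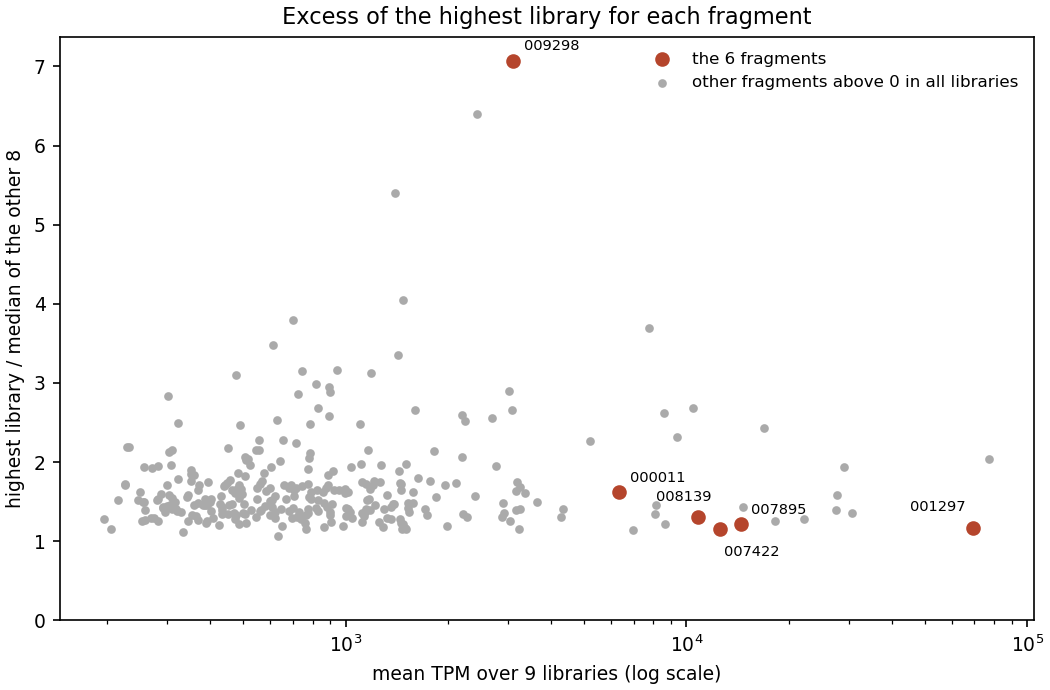
Highest library divided by the median of the other 8 (vertical axis) against the mean level in TPM (horizontal axis, log scale) for the 311 fragments above 0 in all libraries, with the 6 members in red and named by their last digits. AS-tDR-009298 is the highest point at 7.07, and the other 5 members lie between 1.15 and 1.62.

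The 6 fragments together held 12.7%, 13.6% and 8.45% of the tags in ICH + BYHWD 1, 2 and 3, 12.5%, 9.35% and 9.44% in ICH, and 15.0%, 11.9% and 11.9% in sham. Sham 1 was the highest library and ICH + BYHWD 3 the lowest. Without AS-tDR-009298, sham 1 held 13.7% in the other 5 and ICH + BYHWD 2 held 13.4%, so much of the excess of sham 1 was gone. The SD of the log2 sum of the 6 was 0.28, the 23rd lowest of 109 sets and lone fragments that could be compared. The sum of the set around AS-tDR-007516 had an SD of 0.30, and that of the set around AS-tDR-000052 an SD of 0.91.

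AS-tDR-001297 made up 58.9%, 60.3% and 62.6% of the tags of the 6 in ICH + BYHWD, 60.7%, 61.1% and 61.2% in ICH, and 54.8%, 58.1% and 60.2% in sham. With 63052 to 133673 tags of the set in a library, counting error was small: the Wilson 95% interval of the lowest share, in sham 1, was 54.5 to 55.1%, and that of the highest, in ICH + BYHWD 3, was 62.3 to 63.0%. These intervals cover counting error only, since the tags carry no molecular identifiers. Relative to the 5 fragments without AS-tDR-009298, the share of AS-tDR-001297 in sham 1 was 60.3% and its share in sham 2 was 59.1%, so sham 1 was no longer the lowest library.

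AS-tDR-009298 made up 1.72%, 1.51% and 1.58% of the set in ICH + BYHWD, 1.62%, 1.62% and 1.41% in ICH, and 9.10%, 1.61% and 1.63% in sham. Outside sham 1 it thus kept within 1.41 to 1.72% of the set. The Wilson interval in sham 1 was 8.93 to 9.27%.

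AS-tDR-000011 made up 7.47%, 5.47% and 6.08% of the set in ICH + BYHWD, 3.85%, 4.23% and 8.50% in ICH, and 3.86%, 4.98% and 5.47% in sham. ICH 3 was the highest library, and ICH 1 and sham 1 were the lowest. AS-tDR-007422 made up 8.12% of the set in ICH + BYHWD 3 and 8.10% in ICH 3, against 10.7 to 12.2% in the other 7 libraries. AS-tDR-008139 made up 7.99% and 8.04% in the same libraries, ICH + BYHWD 3 and ICH 3, against 8.74 to 10.7% in the other 7. AS-tDR-007895 stayed between 11.4% and 13.6%.

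**Figure D3:**
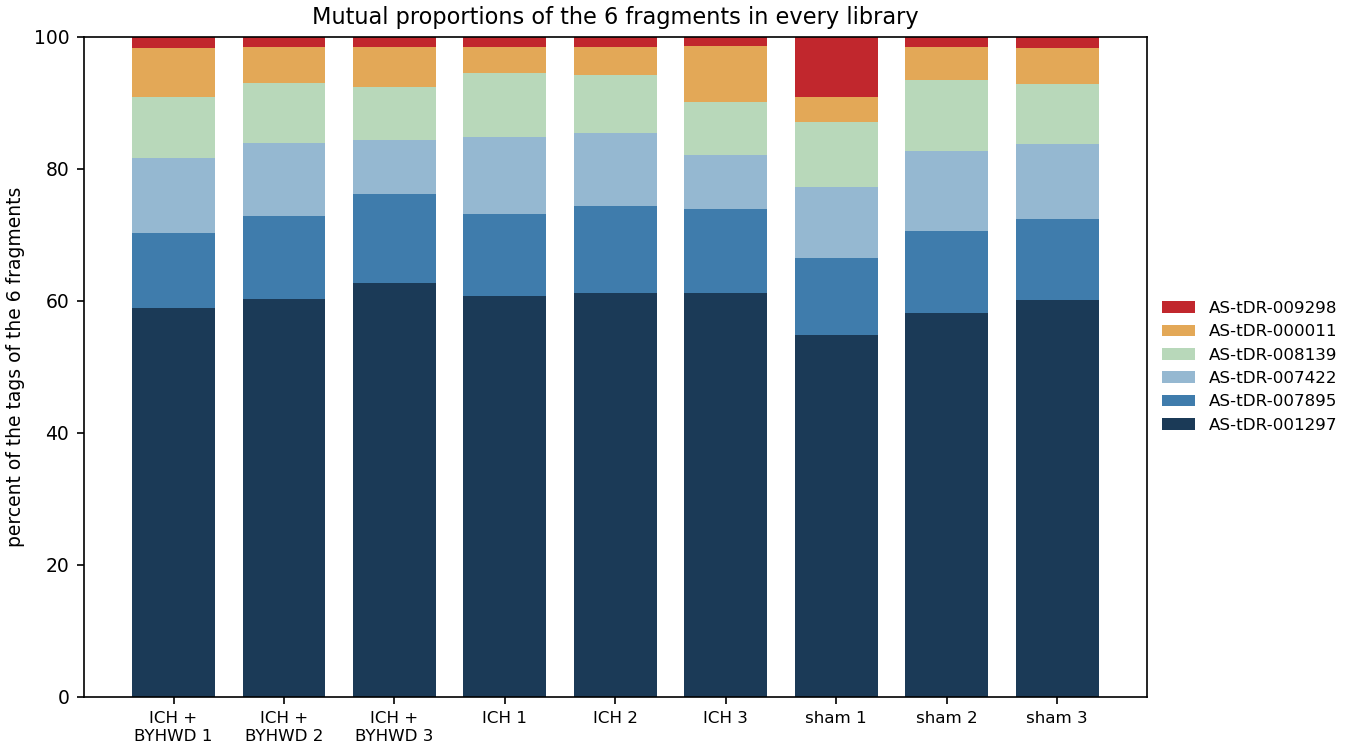
Share of each of the 6 fragments in their summed tags (vertical axis, percent, from 0 to 100) in the 9 libraries, ordered as ICH + BYHWD, ICH and sham. AS-tDR-001297 takes 54.8 to 62.6% of every bar, and AS-tDR-009298 takes 9.10% in sham 1 and 1.41 to 1.72% elsewhere.

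The steadiest proportion was that of AS-tDR-001297 to AS-tDR-007895. The ratio of their tags was 5.19, 4.80 and 4.61 in ICH + BYHWD, 4.89, 4.64 and 4.79 in ICH, and 4.68, 4.70 and 4.92 in sham. The SD of the log2 ratio was 0.05, with 0.01 from counting alone, and it was the 8th lowest among the 48205 pairs of the 311 fragments. Counting error is larger for fragments with fewer tags. This place, like those by SD of log2 TPM above, was therefore not separated from abundance. AS-tDR-007422 and AS-tDR-008139 also kept a narrow ratio, of 1.01 to 1.27, and 1.13% of all pairs were steadier.

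The ratio of AS-tDR-001297 to AS-tDR-007422 was 5.20, 5.43 and 7.72 in ICH + BYHWD, 5.18, 5.50 and 7.55 in ICH, and 5.12, 4.78 and 5.32 in sham. It was highest in ICH + BYHWD 3 and ICH 3, as was the ratio of AS-tDR-001297 to AS-tDR-008139, at 7.84 and 7.61. The ratio to AS-tDR-000011 was 7.89, 11.02 and 10.3 in ICH + BYHWD, 15.8, 14.4 and 7.20 in ICH, and 14.2, 11.7 and 11 in sham. It was the ratio to AS-tDR-000011 that differed most inside the ICH group, between ICH 1 and ICH 3. The ratio to AS-tDR-009298 was 6.02 in sham 1 and 34.3 to 43.5 in the other 8 libraries, and the SD of its log2 value was 0.89 with sham 1 and 0.11 without it.

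Over the 15 pairs of members the median SD of the log2 ratio was 0.41. It was 0.26 over the 10 pairs without AS-tDR-009298, and 0.19 over the 15 pairs without sham 1. The median was 0.53 over all 48205 pairs and 0.50 over the 1182 pairs inside the other row-order sets. The 6 stood 11th of the 28 sets with 3 or more comparable fragments, so stable proportions were not particular to them. The set around AS-tDR-007516 had 0.74 and the set around AS-tDR-000052 had 0.75.

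Covariation between libraries was measured on log2 CPM, the counts per scaled library size, with scaling by TMM, a trimmed mean of the ratios between libraries. AS-tDR-001297, AS-tDR-007895, AS-tDR-007422 and AS-tDR-008139 varied together. Their 6 pairs had Pearson r of 0.94 to 0.99 over the 9 libraries and passed an adjusted p of 0.05 (exact permutation test, two-sided, adjusted over all 48205 pairs), with adjusted p of 0.00871 to 0.0459. Of the 15 pairs of members, these 6 passed, against 3.34% of all pairs. On log2 TPM without TMM scaling, 7 of the 15 passed, but so did 5853 of all 48205 pairs, against 1611 with TMM, and the median r of all pairs was 0.20, against -0.03 with TMM. By Spearman's rho, 1 of the 15 passed, AS-tDR-007422 with AS-tDR-008139 (rho 0.97, exact permutation adjusted p = 0.0232), against 1.01% of all pairs. The rho of AS-tDR-001297 with AS-tDR-007895 was 0.93 (exact permutation adjusted p = 0.050, just above the threshold). For the other 4 pairs rho was 0.75 to 0.87, and the exact permutation adjusted p was 0.121 to 0.247.

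Part of this covariation lay in the lowest libraries. ICH + BYHWD 3 and ICH 3 were the 2 libraries farthest from the median of AS-tDR-001297, and without them its r was 0.95 with AS-tDR-007895, 0.85 with AS-tDR-007422 and 0.57 with AS-tDR-008139. Among the other pairs of the 4, r without them was 0.86 for AS-tDR-007895 with AS-tDR-007422, 0.65 for AS-tDR-007895 with AS-tDR-008139 and 0.89 for AS-tDR-007422 with AS-tDR-008139. The relations of AS-tDR-008139 with AS-tDR-001297 and with AS-tDR-007895 thus rested largely on those libraries. With deviations from the group means, the 6 pairs had r of 0.95 to 0.99. Leaving out ICH + BYHWD 3 left 2 of the 15 pairs past the threshold, leaving out ICH 2 or ICH 3 left 3, and leaving out any other library left 4 or 6. The number past the threshold among all 48205 pairs fell as well, from 1611 with 9 libraries. It was 848 without ICH + BYHWD 3, 290 without ICH 2, 1220 without ICH 3 and 578 to 1126 without any other library. Pairs were thus lost among all fragments too, but in unlike measure. Without ICH + BYHWD 3 or ICH 3 the members lost a larger share of their pairs than all fragments did. Without ICH 2 they lost a smaller share. These shares were not tested against each other. All pairs come from the same 9 libraries and share their scaling.

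AS-tDR-000011 stood apart, with r of -0.04 to 0.21 with the other 5 and exact permutation adjusted p of 0.777 to 0.987. Without the 2 farthest libraries r was -0.67 with AS-tDR-001297, -0.81 with AS-tDR-007895, -0.85 with AS-tDR-007422 and -0.75 with AS-tDR-008139. These values over 7 libraries turn the sign of Pearson r of the same pairs over 9 libraries and were not tested. Spearman's rho of AS-tDR-000011 with the other 5 was already below 0 over the 9 libraries. It was -0.37 to -0.22 (exact permutation adjusted p of 0.650 to 0.816), and -0.02 to 0.23 on log2 TPM without TMM scaling.

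AS-tDR-009298 had r of 0.59 to 0.68 with the 4 covarying fragments over the 9 libraries, and none of these pairs passed (exact permutation adjusted p of 0.254 to 0.395). On log2 TPM without TMM scaling its pair with AS-tDR-007895 passed (r 0.70, exact permutation adjusted p = 0.0205). Its rho with them was 0.83 to 0.90 (exact permutation adjusted p of 0.0861 to 0.157). Without sham 1 its r was 0.94 to 0.98, with exact permutation adjusted p of 0.0569 to 0.102, which also missed the threshold.

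**Figure D4:**
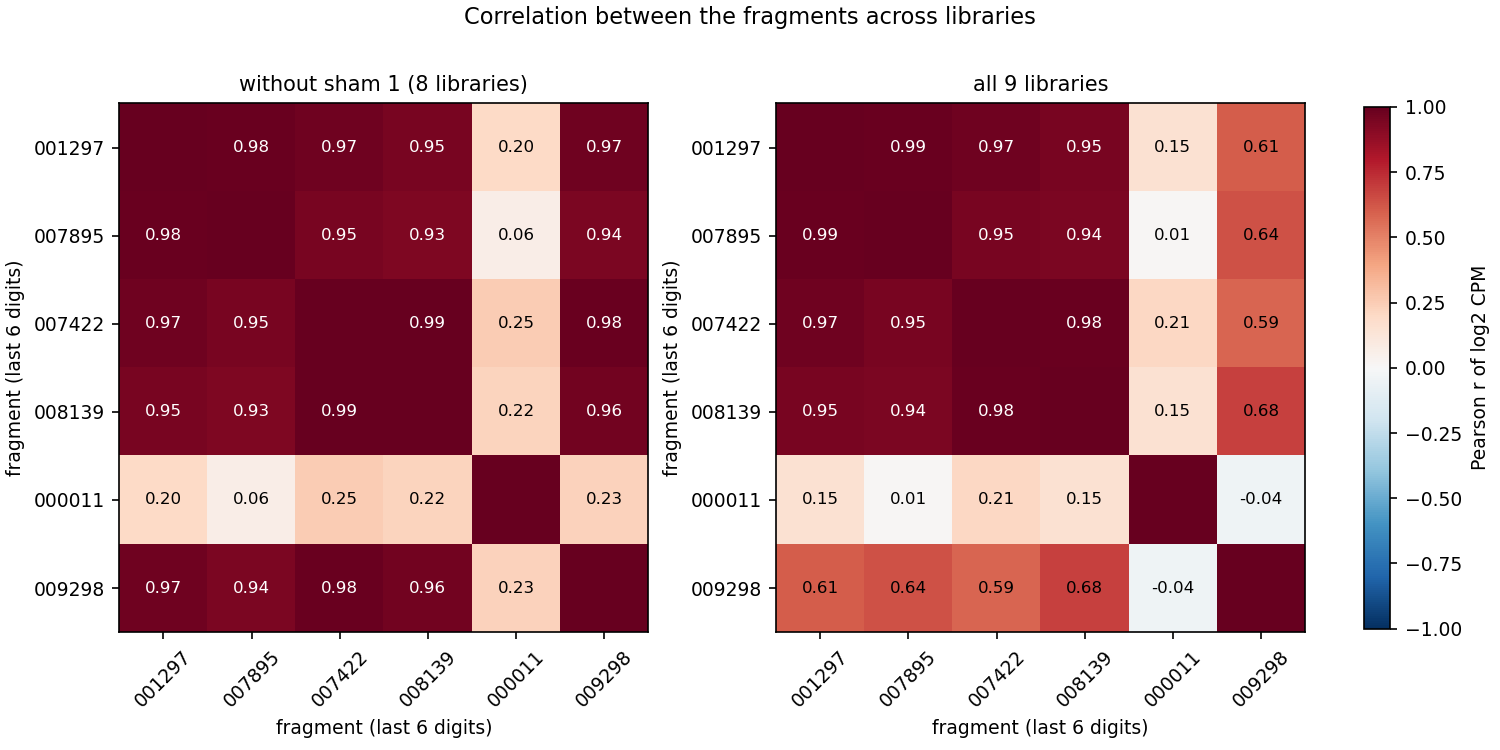
Pearson r of log2 CPM between the 6 fragments (colour and printed value) over the 8 libraries without sham 1 (left) and over all 9 libraries (right). The pairs of AS-tDR-001297, AS-tDR-007895, AS-tDR-007422 and AS-tDR-008139 have 0.94 to 0.99 over all libraries, AS-tDR-000011 has -0.04 to 0.21 there, and AS-tDR-009298 has 0.59 to 0.68 with the 4 over all libraries, against 0.94 to 0.98 without sham 1.

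Among the 310 other fragments above 0 in every library, AS-tDR-007895 ranked 1st by r with AS-tDR-001297, AS-tDR-007422 3rd, AS-tDR-008139 6th, AS-tDR-009298 49th and AS-tDR-000011 149th. The 5 fragments outside the set with the highest r were AS-tDR-007548 (0.98), AS-tDR-007547 (0.97), AS-tDR-009695 (0.97), AS-tDR-001330 (0.95) and AS-tDR-007755 (0.95), with exact permutation adjusted p of 0.0113 to 0.0466. A pattern like that of AS-tDR-001297 over the 9 libraries was therefore not confined to its row neighbours. By Spearman's rho, AS-tDR-007547 and AS-tDR-001330 passed (rho 0.95 each, exact permutation adjusted p = 0.0350). The others did not (rho 0.87 to 0.93, exact permutation adjusted p of 0.050 to 0.121). Without ICH + BYHWD 3 and ICH 3, r of the 5 with AS-tDR-001297 was 0.62 (AS-tDR-007755) to 0.92 (AS-tDR-001330). AS-tDR-007755 averaged 8642 TPM, and AS-tDR-001297 was 6.96 to 8.63 times as abundant in every library. The other 4 averaged 281 to 1448 TPM.

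In ICH against sham, none of the 6 fragments differed beyond the spread between libraries. AS-tDR-001297 averaged 63663 ± 10788 TPM in ICH, against 74405 ± 6922 TPM in sham (SD, n = 3 each). Its log2 fold change was -0.05 with a standard error (SE) of 0.27 and a 95% interval of -0.68 to 0.58 (edgeR quasi-likelihood test, Benjamini-Hochberg adjusted p = 0.960). Here a lower level in the tissue and fewer cells that hold the fragment cannot be told apart. AS-tDR-008139 averaged 9286 ± 2453 TPM in ICH and 12847 ± 1901 TPM in sham, and its log2 fold change was -0.28 (SE 0.33, interval -1.05 to 0.49, edgeR adjusted p = 0.823). It was -0.61 without ICH 1 and -0.035 without ICH 3. The log2 fold changes of AS-tDR-007895, AS-tDR-007422 and AS-tDR-000011 were -0.05, -0.22 and -0.02. No member was called by edgeR, and 0 of the 455 fragments tested were called (0%). At an unadjusted p of 0.05, 0 members passed, against 41 fragments (9.01%). DESeq2 called 17 fragments and limma-voom 0, with no member among them, and DESeq2 gave AS-tDR-009298 no adjusted p in any comparison. All 6 log2 fold changes were below 0, against 51.2% of all fragments, with a median of -0.13 against -0.02. Here and in the comparisons below, the signs of the members are not separate observations. AS-tDR-001297, AS-tDR-007895, AS-tDR-007422 and AS-tDR-008139 varied together over the same libraries. No member had ICH and sham levels without overlap, against 11.3% of fragments. Under RLE scaling 3 of the 6 were above 0, by up to 0.04.

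The largest fold change was that of AS-tDR-009298, which averaged 1624 ± 368 TPM in ICH and 5842 ± 6773 TPM in sham. Its log2 fold change was -1.65 (SE 0.77, interval -3.42 to 0.12, edgeR adjusted p = 0.507, unadjusted p = 0.0641), and it was -0.19 without sham 1. It thus rested on sham 1.

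For ICH + BYHWD against ICH, the question was whether the decoction shifted the fragments after the same haemorrhage, and again no member was called by edgeR (0% of 455 fragments). AS-tDR-001297 averaged 69986 ± 15195 TPM in ICH + BYHWD and 63663 ± 10788 TPM in ICH. Its log2 fold change after scaling was -0.20 (SE 0.27, interval -0.83 to 0.43, edgeR adjusted p = 0.838). AS-tDR-000011 averaged 7360 ± 2187 TPM in ICH + BYHWD and 5602 ± 2143 TPM in ICH, with a log2 fold change of 0.14 (SE 0.26, interval -0.45 to 0.74, edgeR adjusted p = 0.838). The other 4 members had log2 fold changes of -0.23 to -0.15. 5 of the 6 were below 0, against 52.1% of all fragments, and 0 passed an unadjusted p of 0.05, against 30 fragments (6.59%). DESeq2 called 6 fragments and limma-voom 0, with no member among them. No member had levels without overlap, against 10.9% of fragments.

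The sign of these fold changes depended on the scaling, on the filter and on leaving out single libraries. All 6 were above 0 with upper-quartile factors, with no scaling factors, with the library totals and without the filter on low counts, and AS-tDR-001297 then had values of 0.06 to 0.20. All 6 were also above 0 when ICH + BYHWD 3, ICH 1 or any of the sham libraries, which are not compared here, was left out, and AS-tDR-001297 was at 0.060 without sham 1, sham 2 or sham 3. Under the settings of scaling and filter the median of all fragments moved as well, from -0.09 to values of 0.07 to 0.22. Relative to that median, AS-tDR-001297 differed by less than its SE under each of these settings. Filter and scaling were also redone in each fit with a library left out, and the median of all fragments moved there too. It was 0.10, 0.10 and 0.09 without sham 1, sham 2 and sham 3, 0.09 without ICH 1 and 0.03 without ICH + BYHWD 3. The value of 0.060 without a sham library was also that without the filter, so it shows no dependence on a particular sham library.

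For ICH + BYHWD against sham, no member was called by edgeR (0% of 455 fragments). AS-tDR-008139 averaged 10267 ± 3064 TPM in ICH + BYHWD and 12847 ± 1901 TPM in sham, with a log2 fold change of -0.47 (SE 0.33, interval -1.24 to 0.30, edgeR adjusted p = 0.997). AS-tDR-007422 averaged 12131 ± 4581 TPM in ICH + BYHWD and 14674 ± 1328 TPM in sham, with a log2 fold change of -0.42 (SE 0.41, edgeR adjusted p = 0.997). Without ICH + BYHWD 3 the log2 fold change was -0.14 for AS-tDR-008139, -0.039 for AS-tDR-007422 and -0.038 for AS-tDR-007895. AS-tDR-009298 had -1.80 (SE 0.77, interval -3.58 to -0.02, edgeR unadjusted p = 0.0480, adjusted p = 0.997), and -0.07 without sham 1. The log2 fold changes of AS-tDR-001297, AS-tDR-007895 and AS-tDR-000011 were -0.24, -0.28 and 0.12. At an unadjusted p of 0.05, 1 of the 6 members passed, against 19 fragments (4.18%). DESeq2 called 11 fragments and limma-voom 0, with no member among them. 5 of the 6 were below 0, against 43.3% of all fragments, and no member had levels without overlap, against 9.06% of fragments. This comparison shares its ICH + BYHWD libraries with the second comparison and its sham libraries with the first.

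**Figure D5:**
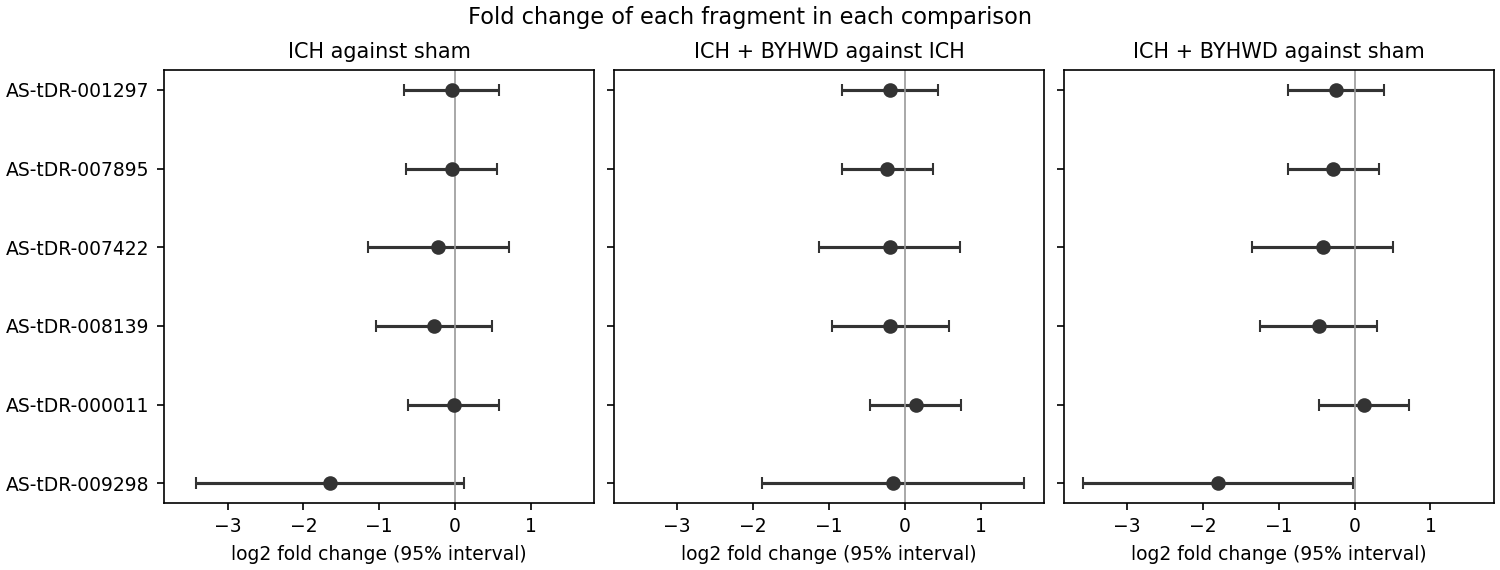
Log2 fold change of each fragment with its 95% interval (horizontal axis) for the comparisons named above each panel, from the edgeR fit of all 9 libraries. The intervals of 5 fragments include 0 in every panel, and the interval of AS-tDR-009298 reaches -3.58 at its lowest and excludes 0 only in ICH + BYHWD against sham, before adjustment.

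Mutual proportions were also compared between groups, by testing the log2 fold change of each fragment relative to that of its row-order set. This test pools the spread within a set. In ICH against sham the SEs of the 6 members were 0.45 to 0.46, against 0.26 to 0.77 for their levels. The highest SE of a level was that of AS-tDR-009298. The p-values for shares, also those without sham 3, thus do not measure the spread of a single fragment between libraries. In ICH against sham, AS-tDR-009298 was lower relative to the set, by a log2 value of -1.52 (SE 0.46, edgeR unadjusted p = 0.00191, adjusted p = 0.119). In ICH + BYHWD against sham it was -1.49 (SE 0.46, edgeR unadjusted p = 0.00228, adjusted p = 0.517). Without sham 1 these values were -0.06 and -0.02. Without sham 3, where sham 1 is 1 of only 2 sham libraries, AS-tDR-009298 was called by edgeR at -1.91 (adjusted p = 0.00695) and -1.86 (adjusted p = 0.00888). AS-tDR-000011 had 0.11 in ICH against sham, 0.32 in ICH + BYHWD against ICH and 0.43 in ICH + BYHWD against sham (SE 0.45 each, lowest edgeR adjusted p = 0.997). The value in ICH + BYHWD against ICH was 0.027 without ICH 1 and 0.65 without ICH 3. The other 4 fragments lay between -0.16 and 0.08 in the 3 comparisons. With all 9 libraries, no member was called in any comparison, and neither was any of the 311 fragments tested (0%). At an unadjusted p of 0.05, 1 member passed in ICH against sham, against 22 fragments (7.07%). None passed in ICH + BYHWD against ICH, against 8 fragments (2.57%), and 1 passed in ICH + BYHWD against sham, against 7 fragments (2.25%).

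Some shares of the set did not overlap between groups. In ICH against sham these were the shares of 2 of the 6 members, AS-tDR-001297 (60.7 to 61.2% in ICH, against 54.8 to 60.2% in sham) and AS-tDR-007895 (12.41 to 13.18% in ICH, against 11.71 to 12.38% in sham), against 15.3% of the 340 fragments in sets. Relative to the 5 fragments without AS-tDR-009298, AS-tDR-001297 made up 61.7 to 62.1% in ICH and 59.1 to 61.2% in sham, and AS-tDR-007895 overlapped. No member was without overlap for ICH + BYHWD against ICH, against 12.1% of fragments. There were 2 of 6 for ICH + BYHWD against sham, against 8.82% of fragments: AS-tDR-008139 (7.99 to 9.19% in ICH + BYHWD, against 9.22 to 10.7% in sham) and AS-tDR-000011 (5.469 to 7.47% in ICH + BYHWD, against 3.86 to 5.468% in sham). The gap between the groups for AS-tDR-000011 lay inside the Wilson intervals of the libraries on either side of it. That of AS-tDR-008139 did too, with intervals of 9.01 to 9.37% in ICH + BYHWD 1 and 8.99 to 9.45% in sham 3. In ICH against sham, so did that of AS-tDR-007895 (12.24 to 12.59% in ICH 1 and 12.16 to 12.60% in sham 2). For AS-tDR-001297 the intervals were 60.47 to 61.00% in ICH 1 and 59.77 to 60.535% in sham 3. These overlapped narrowly, though neither held the share of the other library. Relative to the 5 fragments without AS-tDR-009298, the shares of AS-tDR-000011 overlapped between ICH + BYHWD and sham. Those of AS-tDR-008139 were 8.12 to 9.35% in ICH + BYHWD and 9.37 to 10.9% in sham.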

How the data were processed

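Small RNA was sequenced from 9 libraries, 3 per group. Per the labels' protocols, tRNA modifications that hinder library making were removed first, and inserts of 15 to 50 nt were selected. Reads went through FastQC, cutadapt and Novoalign 2.07.11, per the submitters' processing notes, which also list hg19, a human build. No source used here says which step used it, or how fragments were annotated and counted.

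Per the file headers, the authors deposited a whole tag count and a TPM per fragment in 1 table per library. The TPM equals the deposited count divided by a library total, which gave the depths of 530827 to 1066616 tags. The 2122 rows of a table held 530 fragments, with equal values on repeated rows, and 1 row per fragment was kept. The lowest count listed above 0 was 76 to 149. Libraries are numbered 1 to 3 within a group in accession order, and the numbers pair nothing. No pair of libraries within a group was a duplicate (chi-square of 67.3 per degree of freedom or more).

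The counts were tested with edgeR 4.0.16 (R 4.3.3): TMM on sums of listed counts, filterByExpr with a minimum count of 10 (455 fragments left), a robust quasi-likelihood model over the 9 libraries, Benjamini-Hochberg adjustment and a threshold of 0.05. Shares were tested with diffSpliceDGE in row-order sets, made of fragments that adjoin at 2 or more places, on the 311 fragments in sets of 2 or more. This test pools the spread within a set. Pearson and Spearman correlations of log2 CPM (prior count 2) between all pairs of the 311 fragments above 0 in every library had exact two-sided permutation p-values over the libraries, adjusted over all pairs (SciPy 1.17.1). That the number 311 occurs in both is a coincidence. Scripts were tested on simulated data. Alternatives were RLE, upper-quartile and no scaling, library totals, other filters, log2 TPM without TMM for correlations, each library left out, the 6 libraries compared, DESeq2 1.42.0 and limma-voom 3.58.1. Leaving out AS-tDR-009298 was added after its count in sham 1 was seen.

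The members and lists were chosen with earlier results of these data known. Besides the 6 members, the text names the fragments next in mean TPM to AS-tDR-001297, the row neighbours, and the 5 outside the set with the highest r with AS-tDR-001297. Identifiers were not paired with sequences in the sources used here, so no sequence is printed.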

Additional observations from a re-analysis of the deposited data

How the results depend on the processing

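No paired analysis was possible because the groups share no replicate number in the labels. Counts of fragments called were 17, 6 and 11 with DESeq2, against 0 with edgeR, for ICH against sham, then ICH + BYHWD against ICH, then ICH + BYHWD against sham. With libraries left out in turn they were 0 to 44, 0 and 0 to 17 for levels and 0 to 34, 0 and 0 to 13 for shares of a set, the highest without sham 3, and 2 to 6 for pairs of members. With fragments above 0 in all libraries alone, 3 and 1 shares were called in the first and second comparison, with no member among them. The 6 held 15.6% of the listed tags in ICH + BYHWD, 13.4% in ICH and 17.7% in sham. With libraries left out, they held 10.6 to 13.2%, 9.39 to 10.99% and 11.9 to 13.5% of all tags. Of 339 recomputed fold changes of levels, 68 changed sign and 271 did not, and none was called. Of 303 relative to the set, 20 changed sign, and AS-tDR-009298 was called in 2, both without sham 3.

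In ICH against sham, log2 values turned to 0.0063, 0.0076 and 0.0063 (AS-tDR-001297), 0.0050, 0.0066 and 0.0050 (AS-tDR-007895) and 0.041, 0.028 and 0.041 (AS-tDR-000011) with RLE, the 6 libraries compared and DESeq2. AS-tDR-000011 also had 0.015 with fragments above 0 alone. With libraries left out, ranges were -0.29 to 0.16 (AS-tDR-001297), -0.27 to 0.16 (AS-tDR-007895), -0.60 to 0.084 (AS-tDR-007422), -0.61 to -0.035 (AS-tDR-008139) and -0.15 to 0.048 (AS-tDR-000011). Relative to the set they were -0.22 to 0.012 (AS-tDR-007422) and -0.22 to 0.41 (AS-tDR-000011).

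In ICH + BYHWD against ICH, upper-quartile factors, no factors, library totals, no filter and the fit without AS-tDR-009298 gave 0.070, 0.20, 0.14, 0.060 and 0.057 (AS-tDR-001297), 0.040, 0.17, 0.11, 0.026 and 0.023 (AS-tDR-007895), 0.073, 0.23, 0.15, 0.085 and 0.082 (AS-tDR-007422) and 0.075, 0.21, 0.14, 0.076 and 0.073 (AS-tDR-008139). The first 4 settings gave 0.12, 0.26, 0.19 and 0.12 for AS-tDR-009298. The median of all fragments moved from -0.09 to 0.15, 0.22, 0.18, 0.07 and 0.10. With libraries left out, ranges were -0.40 to 0.17 (AS-tDR-001297), -0.43 to 0.11 (AS-tDR-007895), -0.51 to 0.31 (AS-tDR-007422), -0.44 to 0.27 (AS-tDR-008139), -0.099 to 0.44 (AS-tDR-000011) and -0.40 to 0.27 (AS-tDR-009298). Relative to the set, AS-tDR-007422 had 0.014 with no factors, 0.0019 with library totals, 0.0085 with no filter and 0.0091 without AS-tDR-009298. With libraries left out, these values ran from -0.032 to 0.0043 (AS-tDR-001297), -0.095 to 0.016 (AS-tDR-007895), -0.12 to 0.12 (AS-tDR-007422), -0.054 to 0.078 (AS-tDR-008139), 0.027 to 0.65 (AS-tDR-000011) and -0.034 to 0.10 (AS-tDR-009298).

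In ICH + BYHWD against sham, ranges with libraries left out were -0.31 to 0.027 (AS-tDR-001297), -0.34 to -0.038 (AS-tDR-007895), -0.58 to -0.039 (AS-tDR-007422), -0.59 to -0.14 (AS-tDR-008139) and -0.12 to 0.43 (AS-tDR-000011). Relative to the set, AS-tDR-007895 had -0.012 to 0.10, and -0.013 without AS-tDR-009298. With library totals the median of all fragments moved from 0.06 to 0.23, and in ICH against sham it moved from -0.02 to -0.23 with no factors.

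Pearson r of AS-tDR-000011 without the 2 farthest libraries was -0.67, -0.81, -0.85 and -0.75 with AS-tDR-001297, AS-tDR-007895, AS-tDR-007422 and AS-tDR-008139. With libraries left out it ran from -0.52 to 0.35, -0.65 to 0.19, -0.44 to 0.46 and -0.53 to 0.36 with the same fragments, and from -0.34 to 0.23 with AS-tDR-009298, for which it was 0.0090 on log2 TPM. On that scale 7 of the 15 pairs of members passed, with AS-tDR-007895 and AS-tDR-009298 (r 0.70) added. The causes of these changes were not tested.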
